A study of Saccharomyces cerevisiae with 8 samples.

Results

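The RNA levels of 10 yeast genes of the cell wall integrity pathway and the cell wall were followed across 4 strains: the Pir wall protein genes PIR3, PIR1, HSP150 and CIS3, the yapsin protease genes YPS3 and YPS1, the wall genes PST1, CRH1 and CWP1, and the kinase gene SLT2. The list was drawn up with earlier results of these data known. Counts of its genes against all probe sets therefore describe it and do not test it. Members are the genes of this list, each read by every probe set that names it alone in the platform annotation. Each gene had 1 such probe set, so the 10 are part of 5656 genes named in this way, and all 10 passed the filter on dim probe sets. Cells of Saccharomyces cerevisiae carried the not1-2 allele, the spt3 mutation, both together (not1-2 spt3), or neither (wild type), with 2 arrays for each of the 4 strains. All strains, wild type included, were first kept for 24 h at 30°C in medium rich in glucose, then shifted at an optical density of 0.2 to 37.5°C, the restrictive temperature, and harvested at 0.8. Not1 (gene CDC39) holds together the Ccr4-Not complex, which acts in transcription and mRNA decay, while Spt3 belongs to the SAGA coactivator and helps the TATA-binding protein reach promoters. The sources used here do not say what the not1-2 and spt3 mutations alter, or whether replicates came from separate cultures. Every p-value therefore measures spread among these arrays alone, and that spread may be technical. In extracts of whole cultures, fewer cells with a transcript and less of it per cell cannot be told apart.

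The yeast cell wall is a mesh of glucan and chitin that carries an outer layer of mannoproteins. When the wall is stressed, by heat among other things, sensors in the plasma membrane act through the GTPase Rho1 and the kinase Pkc1 on a cascade that ends in the MAP kinase Slt2, and Slt2 activates the transcription factor Rlm1, which switches on wall genes. Pir proteins have internal repeats and are bound to glucan directly, whereas many other wall proteins are held by a glycolipid anchor. All 4 strains were grown at a temperature that is itself known to engage this pathway, so wild type is a heated control and not a resting one.

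Signals below are the deposited intensities after each array was brought to a common median, and a pair of values for a strain is replicate 1, then replicate 2. A difference is on the log2 scale with its standard error (SE) from limma, fitted to 7043 probe sets over all 8 arrays, and an adjusted p is Benjamini-Hochberg adjusted over all of them, with 0.05 as the threshold. "With the block" means that the replicate number was added to the fit, because same-numbered arrays deviated together in all 6 pairs of strains (r from 0.188 to 0.739).

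The strains and arrays differed in ways that touch these comparisons. SPT3 gave signals of 29.9 and 22.8 in not1-2 and 25.3 and 15.5 in wild type, and sat at the lowest value used, 1.72, on every array of spt3 and not1-2 spt3, 4 in all. CDC39, read here by the brightest of 9 probe sets, averaged 20.8 in not1-2, 45.0 in spt3, 42.0 in not1-2 spt3 and 20.7 in wild type, and checks no label. All 7 a-specific genes were lower on all 6 mutant arrays than on both wild-type arrays, with summed signals between 43.4 and 101.1 in the mutants and of 2717 and 9339 in wild type, and ASG7 was at that lowest value in spt3 and not1-2 spt3. The 5 alpha-specific genes were higher, with sums between 1240.0 and 3156 in the mutants and of 171 and 205 in wild type. In each difference from wild type the mutation and the mating-type expression cannot be told apart. TRP1, a tryptophan synthesis gene, was between 36.0 and 56.2 in spt3 and not1-2 spt3, and at the lowest value in not1-2 and wild type. The ACT1 control probe sets, whose 3' over 5' ratio is a sign of RNA quality, gave ratios between 5.83 and 199.1 on the replicate 1 arrays, where wild type had the highest, and between 1.79 and 2.10 on the replicate 2 arrays.

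**Figure D1:**
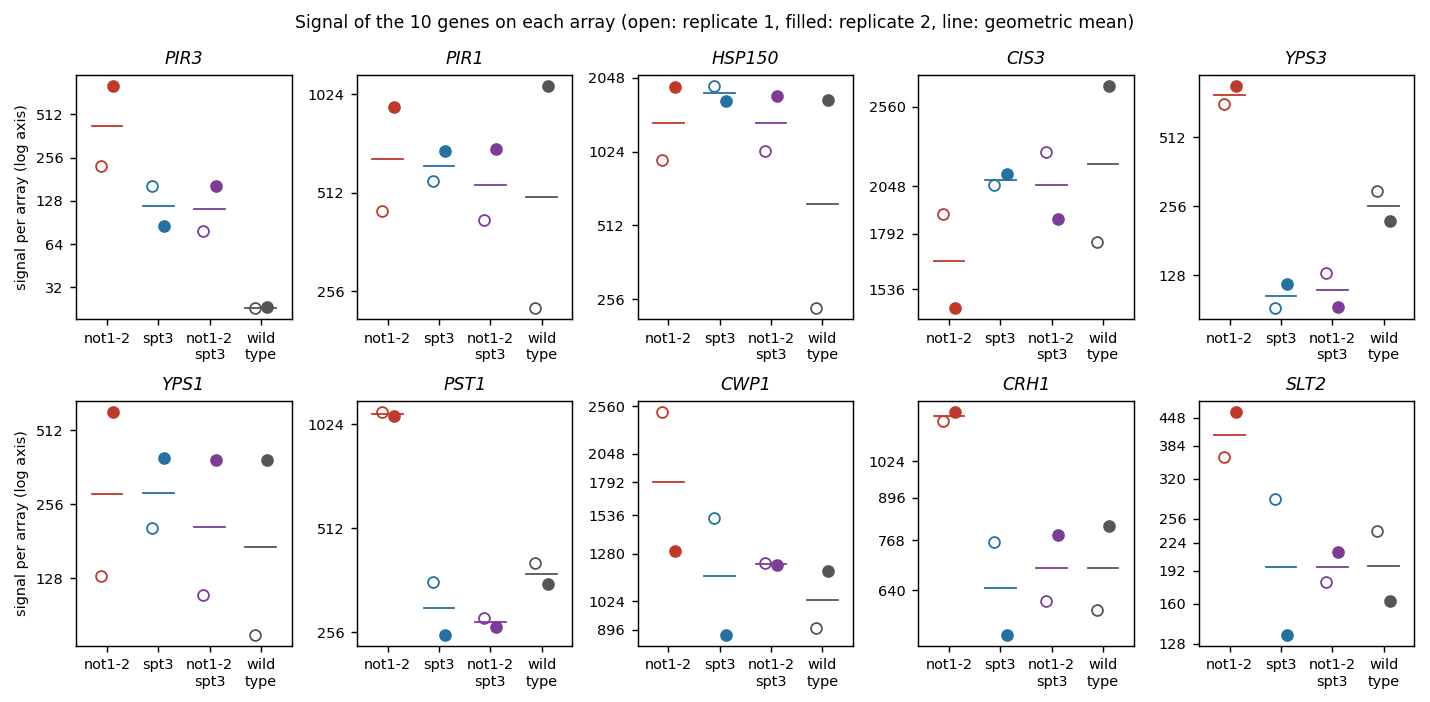
Signal of each of the 10 genes (log axis, scale differs between panels) on each array of not1-2, spt3, not1-2 spt3 and wild type; open points are replicate 1, filled points replicate 2 and lines geometric means. PIR3, YPS3, PST1, SLT2, CRH1 and CWP1 were higher on both not1-2 arrays than on both wild-type arrays.

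The first question was how these genes respond to the NOT1 mutation in cells with SPT3 signal, from not1-2 against wild type. In not1-2, 9 of the 10 genes had estimates above wild type. Their median difference was 0.92, against -0.08 over all tested probe sets, of which 44.4% lay above. The median was 0.59 without wild-type replicate 1 (0.47 with the block) and 1.42 without wild-type replicate 2. PIR3 stood 18.4-fold, YPS3 3.06-fold, PST1 2.90-fold, HSP150 2.14-fold and SLT2 2.07-fold above wild type, the last 2 without passing in either fit. In 6 of the 10 genes both not1-2 arrays exceeded both wild-type arrays, against 14.8% of all probe sets, and in 0 of 10 the reverse held (17.3% of all). With the block 3 of the 10 passed as higher, PIR3, YPS3 and PST1, against 1.04% of all probe sets. Without it limma called 0 of 10, against 0.0426% of all probe sets in either direction, and 4 of 10 had an unadjusted p under 0.05, against 7.67% of all.

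The second question was how the same genes respond to loss of SPT3 in not1-2 cells, from not1-2 spt3 against not1-2. Its means come from no wild-type array. The 2 strains also differ in TRP1 signal, and the mutation and that difference cannot be told apart. In it 9 of the 10 genes lay lower, with a median difference of -0.68, against 0.06 over all tested probe sets, of which 55.1% lay above. The median was -1.03 without not1-2 replicate 1, -1.08 without not1-2 spt3 replicate 2 and -0.60 without not1-2 spt3 replicate 1. Without not1-2 spt3 replicate 1, 4 of the 10 genes lay above not1-2 (1 with the block). The same counts held without not1-2 replicate 2. In 6 of the 10 genes both not1-2 spt3 arrays lay below both not1-2 arrays, against 18% of all probe sets, and in 0 of 10 above them (20.2% of all). The not1-2 arrays are shared with the comparison above. YPS3 and PST1 passed as lower with the block, 2 of 10, against 2.07% of all probe sets. Without the block limma called 0 of 10, against 0.0284% of all in either direction, and 4 of 10 had an unadjusted p under 0.05, against 7.61%.

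**Figure D2:**
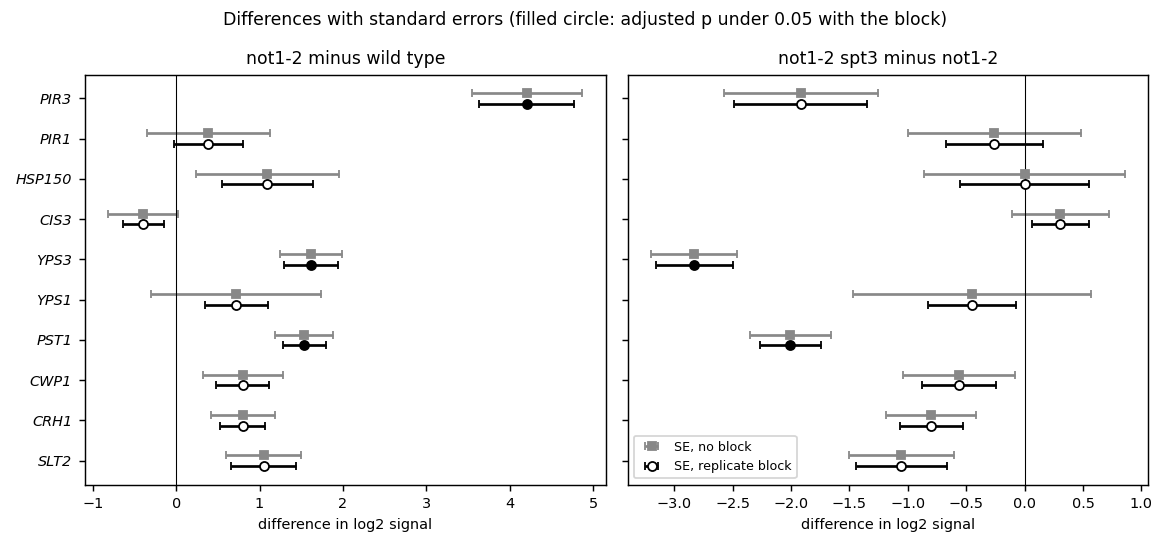
Difference in log2 signal of the 10 genes in not1-2 minus wild type (left) and not1-2 spt3 minus not1-2 (right); bars are SE without (squares) and with (circles) the replicate block, and filled circles passed with the block. YPS3 and PST1 passed in both comparisons, PIR3 in the first.

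SLT2 (YHR030C), the MAP kinase at the end of the cascade, gave 360 and 463 in not1-2 cells, 286 and 135 in spt3, 180.4 and 213 in not1-2 spt3 and 240 and 163 in wild type. Its not1-2 arrays were the highest 2 of the 8, and the other 3 strains overlapped. The difference from wild type was 1.05 ± 0.45 in not1-2 (adjusted p = 0.65, and 0.205 with the block), while that between not1-2 spt3 and not1-2 was -1.06 ± 0.45 (adjusted p = 0.653, or 0.184 with the block). Neither passed. In spt3 and not1-2 spt3 the differences from wild type were -0.01 each, with 95% intervals from -1.05 to 1.04, which do not exclude a change of 2-fold in either direction. With the block both intervals ran from -0.89 to 0.87, short of 2-fold.

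PIR3 (YKL163W), a Pir protein gene, had the highest difference of the 10 genes in not1-2 against wild type. Its signals were 224 and 813 in not1-2, 162 and 86.0 in spt3, 78.9 and 162 in not1-2 spt3, and 22.9 and 23.4 in wild type. All 6 mutant arrays exceeded both wild-type arrays, and both not1-2 arrays exceeded all others. The difference from wild type was 4.21 ± 0.66 in not1-2 (adjusted p = 0.131, and 0.0123 with the block), 2.35 ± 0.66 in spt3 (adjusted p = 0.739, and 0.102 with the block) and 2.29 ± 0.66 in not1-2 spt3 (adjusted p = 0.851, and 0.118 with the block). Of these only the first passed, and only with the block. In each mutant both replicate pairs lay on the same side: 3.29 and 5.12 in not1-2, 2.82 and 1.88 in spt3, and 1.79 and 2.79 in not1-2 spt3, for replicates 1 and 2. Between not1-2 spt3 and not1-2 the difference was -1.92 ± 0.66 (adjusted p = 0.542, and 0.108 with the block). In blocked fits its call in not1-2 was kept without any single array of spt3 or not1-2 spt3, and was lost without wild-type replicate 1, wild-type replicate 2, not1-2 replicate 1 or not1-2 replicate 2, at adjusted p of 0.106, 0.0987, 0.0938 and 0.244. Without spt3 replicate 1 or replicate 2, PIR3 passed in not1-2 spt3 against wild type (0.0366 and 0.0404) and in not1-2 spt3 against not1-2 (0.0349 and 0.0389). Those fits called 1.89% and 1.84% of all probe sets in the first comparison and 6.18% and 5.75% in the second, more than over all 8 arrays.

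None of the 3 other Pir genes passed the test in any comparison, with or without the block over all 8 arrays. PIR1 (YKL164C) gave 450.4 and 935 in not1-2, 556 and 688 in spt3, 423 and 695 in not1-2 spt3 and 227 and 1086 in wild type. HSP150 (YJL159W), also called PIR2, a secreted heat-inducible Pir glycoprotein gene, gave 947 and 1883 in not1-2, 1902 and 1650.2 in spt3, 1032 and 1727 in not1-2 spt3, and 235 and 1664 in wild type. For both genes the replicate 1 array of wild type was the lowest of all 8 arrays, and for PIR1 the replicate 2 array of wild type was the highest. The difference in not1-2 was 0.39 ± 0.74 for PIR1 (adjusted p = 0.953, and 0.66 with the block) and 1.10 ± 0.86 for HSP150 (adjusted p = 0.853, and 0.337 with the block). Within replicate 1 it was 0.99 for PIR1 and 2.01 for HSP150, and within replicate 2 it was -0.22 and 0.18. CIS3 (YJL158C), also called PIR4, was the one member below wild type in not1-2: 1893 and 1456 there, 2056 and 2118 in spt3, 2253 and 1869 in not1-2 spt3 and 1753 and 2714 in wild type, a difference of -0.39 ± 0.42 in not1-2 (adjusted p = 0.899, and 0.435 with the block).

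PIR1 and PIR3 are next to each other on chromosome XI in assembly R64, and the letters that end their systematic names place them on opposite strands, facing away from each other. PIR3 differed by 4.21 and PIR1 by 0.39 in not1-2 against wild type, a gap between neighbours that was not tested. HSP150 lies between PIR5, another Pir gene, and CIS3 on chromosome X.

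The yapsins are aspartyl proteases with a glycolipid anchor that process proteins at the cell surface. YPS3 (YLR121C) gave 715 and 863 in not1-2, 91.6 and 117 in spt3, 131 and 92.9 in not1-2 spt3, and 299 and 220.0 in wild type. The 2 not1-2 arrays were the highest and the 4 arrays of the strains labelled spt3 the lowest, with wild type between them and no overlap between the 3 sets. YPS3 was the one member lower on all 4 arrays that lack SPT3 signal than on all 4 others, against 3.42% of all probe sets, and 0 members were higher on those 4 (3.52% of all). The difference between not1-2 and wild type was 1.62 ± 0.37 (adjusted p = 0.317, or 0.0482 with the block). That between not1-2 spt3 and not1-2 was -2.83 ± 0.37 (adjusted p = 0.0947, or 0.00772 with the block), with -2.44 and -3.21 in replicate pairs 1 and 2. YPS3 thus rose in not1-2 and fell in not1-2 spt3 against not1-2 in the blocked fit. Against wild type it differed by -1.31 ± 0.37 in spt3 (adjusted p = 0.739, and 0.111 with the block) and by -1.21 ± 0.37 in not1-2 spt3 (adjusted p = 0.929, and 0.151 with the block), which did not pass.

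YPS1 (YLR120C) lies beside YPS3 on chromosome XII, on the same strand. Its signals were 131 and 609 in not1-2, 206 and 394 in spt3, 110 and 388 in not1-2 spt3, and 75.4 and 389 in wild type. In every strain replicate 2 exceeded replicate 1, by between 0.94 and 2.37 on the log2 scale, and the strains overlapped. YPS1 differed by 0.72 ± 1.02 in not1-2 against wild type (adjusted p = 0.926, and 0.349 with the block) and by -0.45 ± 1.02 in not1-2 spt3 against not1-2 (adjusted p = 0.968, and 0.578 with the block). With the block the 95% interval in not1-2 spt3 against not1-2 ran from -1.30 to 0.40 for YPS1 and from -3.57 to -2.09 for YPS3.

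PST1 (YDR055W), a glycolipid-anchored wall protein gene known to be switched on by wall damage, gave 1111 and 1082 in not1-2, 358 and 252 in spt3, 281 and 265 in not1-2 spt3, and 405 and 353 in wild type. Both not1-2 arrays lay above the other 6, and both not1-2 spt3 arrays lay below both wild-type arrays. PST1 was higher in not1-2 than in wild type by 1.54 ± 0.35 (adjusted p = 0.317, and 0.0268 with the block), with 1.46 and 1.61 on the replicate 1 and 2 arrays. Between not1-2 spt3 and not1-2 the difference was -2.01 ± 0.35 (adjusted p = 0.136, or 0.0114 with the block), with -1.98 and -2.03 in the 2 replicate pairs. In spt3 and not1-2 spt3 it differed from wild type by -0.33 ± 0.35 and -0.47 ± 0.35 (adjusted p = 0.866 and 0.959, and 0.515 and 0.43 with the block).

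The blocked calls of YPS3 and PST1 in not1-2 spt3 against not1-2 were kept without any single wild-type or spt3 array. They were lost without not1-2 replicate 1 (adjusted p = 0.152 for YPS3 and 0.195 for PST1), not1-2 replicate 2 (0.155 and 0.201), not1-2 spt3 replicate 1 (0.0708 and 0.125) or not1-2 spt3 replicate 2 (0.0597 and 0.0663). Their differences stayed between -3.11 and -2.55 for YPS3 and between -2.12 and -1.89 for PST1 in those blocked fits. In not1-2 against wild type the blocked calls of both genes were lost without either wild-type array (adjusted p for YPS3 and PST1 of 0.147 and 0.133 for replicate 1, 0.182 and 0.0982 for replicate 2), without either not1-2 array (0.279 and 0.238 for replicate 1, 0.542 and 0.434 for replicate 2) and without not1-2 spt3 replicate 2 (0.0714 and 0.056), and that of YPS3 also without not1-2 spt3 replicate 1 (0.0665).

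CRH1 (YGR189C) encodes an enzyme that links chitin to glucan in the wall. It gave 1188 and 1226 in not1-2, 763 and 544 in spt3, 615 and 783 in not1-2 spt3, and 596 and 809 in wild type, so the not1-2 arrays lay above all others and the other strains overlapped. Its difference was 0.80 ± 0.39 in not1-2 against wild type (adjusted p = 0.714, and 0.173 with the block) and -0.80 ± 0.39 in not1-2 spt3 against not1-2 (adjusted p = 0.708, and 0.154 with the block). CWP1 (YKL096W), a mannoprotein gene, gave 2495 and 1296 in not1-2, 1519 and 877 in spt3, 1227 and 1213 in not1-2 spt3, and 903 and 1179 in wild type. On the replicate 2 arrays alone CWP1 differed by 0.14 in not1-2 against wild type, against 1.47 on the replicate 1 arrays. Its fitted difference was 0.80 ± 0.48 (adjusted p = 0.775, and 0.231 with the block), and -0.56 ± 0.48 in not1-2 spt3 against not1-2 (adjusted p = 0.864, and 0.394 with the block).

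**Figure D3:**
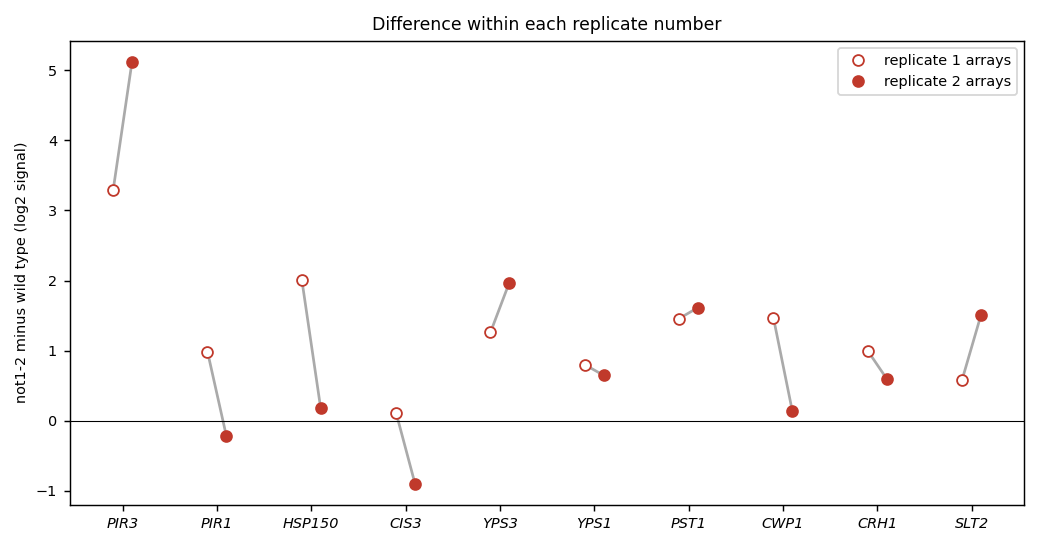
Difference in log2 signal between not1-2 and wild type within the replicate 1 arrays (open) and the replicate 2 arrays (filled) for each of the 10 genes. PST1 gave 1.46 and 1.61, while HSP150 gave 2.01 and 0.18 and CIS3 0.11 and -0.90.

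The array pairs differed in how far the 10 genes lay from wild type. In not1-2 the median was 1.13 within replicate 1 (ACT1 ratio 36.8 in not1-2 and 199.1 in wild type), with all 10 genes above wild type. Within replicate 2 it was 0.62 (ACT1 ratio 2.10 in not1-2 and 1.88 in wild type), with 8 of 10 above. The median of all tested probe sets was -0.12 and -0.03 in the same pairs. Within wild type, replicate 2 exceeded replicate 1 by 7.09-fold for HSP150, 5.15-fold for YPS1 and 4.78-fold for PIR1, and the other 7 genes lay between 0.678-fold and 1.55-fold. With the ACT1 ratio added to the block, PIR3 (4.09, adjusted p = 0.0447) and PST1 (1.49, adjusted p = 0.0484) still passed in not1-2 against wild type and YPS3 did not (1.73, adjusted p = 0.0647). In not1-2 spt3 against not1-2, YPS3 (-2.74) and PST1 (-2.04) passed in that fit, at adjusted p = 0.0212 each. Of all 7043 probe sets that fit called 74 in the first comparison and 84 in the second. HSP150 was then at 0.44 in not1-2 and 0.03 in spt3, against 1.10 and 1.50 without these terms.

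Loss of SPT3 with NOT1 intact asks what the SPT3 mutation changes alone. In spt3 against wild type 5 of the 10 genes lay above and 5 below, with a median of 0.08, against -0.02 over all tested probe sets. The median turned to -0.28 without wild-type replicate 1 and -0.14 without spt3 replicate 1, and to -0.35 with the block and the ACT1 ratio. No member passed in limma without the block (0.0568% of all probe sets did) or with it (0.568%), and 2 of 10, PIR3 and YPS3, had an unadjusted p under 0.05, against 5.51% of all. They were also the 2 whose arrays did not overlap between the strains, PIR3 higher (16% of all probe sets) and YPS3 lower (15.9%). HSP150 lay 1.50 ± 0.86 above wild type (adjusted p = 0.864, and 0.216 with the block), with 3.02 within replicate 1 and -0.01 within replicate 2. The member median was 0.55 and -0.39 in the 2 pairs, with 8 and 2 genes above wild type. Without spt3 replicate 2, the blocked fit called PIR3 (3.30, adjusted p = 0.0225), HSP150 (2.37, adjusted p = 0.0444) and YPS3 (-1.60, adjusted p = 0.0411), 3 of 10, in a fit that called 8.92% of all probe sets.

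The not1-2 spt3 cells carry both mutations. Against wild type they had 5 of 10 genes above and 5 below, with a median of 0.06, against -0.05 over all tested probe sets, and limma called 0 of 10 without the block (0.071% of all in either direction) and with it (0.199%); 2 of 10, PIR3 and YPS3, had an unadjusted p under 0.05, against 4.3%. PIR3 and CWP1 were higher on both arrays than on both wild-type arrays (13.2% of all probe sets), and YPS3 and PST1 lower (12.5%). On the replicate 1 and 2 arrays the member median was 0.40 and -0.02, with 7 and 4 genes above wild type. It became -0.35 or 0.33 when wild-type replicate 1 or 2 was left out, and -0.15 when not1-2 spt3 replicate 2 was.

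Whether not1-2 changes these genes once SPT3 is lost is read from not1-2 spt3 against spt3. The 10 differences ran from -0.46 for YPS1 to 0.11 for CRH1, with a median of -0.04, the same as that of all tested probe sets to 2 decimals. These average over pairs that differed. The member median was -0.37 within replicate 1, with 8 of 10 genes below spt3, and 0.07 within replicate 2, with 7 above. In those pairs YPS3 gave 0.52 and -0.33, PST1 -0.35 and 0.07 and PIR3 -1.04 and 0.91. The arrays of the 2 strains overlapped for all 10 genes, whereas 5.44% of all probe sets were higher and 6.57% lower without overlap. Limma called 0 of 10 genes and 0 of 7043 probe sets with or without the block, and 0 of 10 genes had an unadjusted p under 0.05, against 0.142% of all. The 95% intervals were -0.76 to 0.95 for YPS3, -0.95 to 0.67 for PST1 and -1.59 to 1.47 for PIR3. The estimates in not1-2 cells with SPT3 (1.62, 1.54 and 4.21) lay above them. Those estimates have 95% intervals of their own, 0.76 to 2.47, 0.73 to 2.35 and 2.68 to 5.73, and for YPS3 the 2 intervals overlap. Whether the 2 differences are unequal is tested by the interaction, which passed for 0 of 10 genes over all arrays.

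The interaction is the not1-2 difference in cells lacking SPT3 minus that in cells with SPT3, and tests whether the 2 differ. It was negative for 9 of the 10 genes, with a median of -1.12, against 0.06 over all tested probe sets. That median was -0.50 without wild-type replicate 1, -0.54 with the block and without spt3 replicate 1, and -0.65 with the block and the ACT1 ratio. PIR3 had an interaction of -4.27 ± 0.93 (adjusted p = 0.86, and 0.116 with the block), PST1 of -1.67 ± 0.49 (adjusted p = 0.999, and 0.166 with the block) and YPS3 of -1.52 ± 0.52 (adjusted p = 0.999, and 0.325 with the block). Without the block limma called 0 of 10 genes and 0 of 7043 probe sets, with it 0 of 10 against 0.0852% of all, and 3 of 10 had an unadjusted p under 0.05, against 3.49%. PIR3 was -4.33 and -4.21, PST1 -1.81 and -1.54 and YPS3 -0.74 and -2.30 on the replicate 1 and 2 arrays. Over the 10 genes the median interaction was -1.54 within replicate 1, with 9 negative, and -0.39 within replicate 2, with 7 negative. For PIR3 the differences from wild type in the single mutants, 4.21 and 2.35, sum to 6.56, against 2.29 in not1-2 spt3. The wild-type arrays enter this sum and every interaction. A difference from wild type that all mutants share, such as that in mating-type expression, cannot be told apart there from the mutations. Over all 8 arrays the interaction did not pass for any of the 10 genes, so a difference between cells with and without SPT3 is not shown. PIR3 passed it with the block without spt3 replicate 2 (-5.21, adjusted p = 0.0191), a fit in which 1.5% of all probe sets passed.

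The 10 genes were set against each other by their pattern over the 8 arrays, as the root mean square distance between their log2 signals after each gene was centred on its own mean. CRH1 and CWP1 were nearest to each other at 0.30, SLT2 was nearest to CRH1 at 0.32, PST1 to SLT2 at 0.42 and YPS3 to PST1 at 0.53. PIR1 and YPS1 were nearest to each other at 0.46, and HSP150 to PIR1 at 0.49. CIS3 was nearest to CWP1, at 0.53. SLT2 was the member nearest to PIR3, at 1.26. Of the 5355 probe sets that name 1 gene, 13 were nearer to YPS3 than its nearest member, 33 to CWP1, 47 to PST1, 60 to SLT2, 85 to YPS1, 112 to CRH1, 127 to HSP150, 220 to PIR3, 533 to PIR1 and 3124 to CIS3. Over all named genes the 3 nearest to PIR3 were MF(ALPHA)2, an alpha-factor gene, at 0.64, SAG1, the alpha-agglutinin gene, at 0.66, both on the alpha-specific list above, and ARG3, an arginine synthesis gene, at 0.71. SAG1 gave 323 and 530 in not1-2, 147 and 123 in spt3, 80.3 and 189 in not1-2 spt3 and 57.2 and 64.1 in wild type, the same order of strains as PIR3. Those nearest to SLT2 were PEX11, a peroxisome division gene, at 0.12, IAT4 at 0.13 and DFP3 at 0.15. These distances describe 8 arrays of 4 strains and carry no test.

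Other genes of the wall and of the pathway were read from 5 lists of 77 genes, of which 73 passed the filter and SWI4, YPS5, SPS2 and SPS22 did not. In not1-2 against wild type 44 of the 73 lay above, with a median of 0.12 against -0.08 over all tested probe sets. With the block 1 passed as higher (BAG7) and 1 as lower (PLB2), 2.74% of the 73 together, against 1.99% of all probe sets. Without it limma called 0, and 12, or 16.4%, had an unadjusted p under 0.05, against 7.67% of all. In not1-2 spt3 against not1-2, 40 of the 73 lay below, with a median of -0.04 against 0.06 over all, and PUN1 and EXG1 passed as lower with the block, 2.74% of the 73 against 2.07% of all. Without it 0 passed, and 12, or 16.4%, had an unadjusted p under 0.05, against 7.61% of all. In spt3 against wild type UTR2 passed as lower with the block, 1.37% of the 73 against 0.398% of all. Limma without it called 0, and 6, or 8.22%, had an unadjusted p under 0.05, against 5.51% of all. Limma called 0 of the 73 with or without the block in not1-2 spt3 against wild type, in not1-2 spt3 against spt3 and in the interaction, where 8, 0 and 5 of the 73 had an unadjusted p under 0.05 without the block, against 4.3%, 0.142% and 3.49% of all.

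Upstream of Slt2, the 15 sensor and Rho1 genes had a median of 0.05 in not1-2, 9 of them above wild type. BAG7, a gene of this list, gave 34.5 and 105 in not1-2, 18.1 and 12.9 in spt3, 8.70 and 19.5 in not1-2 spt3, and 1.72, the lowest value used, and 12.3 in wild type. Its not1-2 arrays were the highest 2 of the 8. The difference of BAG7 between not1-2 and wild type was 3.71 ± 0.95 (adjusted p = 0.366, and 0.0291 with the block), which includes that lowest value, and the blocked call was lost without either not1-2 or either wild-type array (0.0711 to 0.433). The 12 genes of the kinase cascade and its factors had a median of 0.28, with 8 above wild type and 0 past the test in either fit (2 at an unadjusted p under 0.05). The smallest p was that of KDX1, a kinase-like relative of SLT2, with 19.8 and 33.1 in not1-2, 4.35 and 7.22 in spt3, 7.81 and 11.5 in not1-2 spt3, and 7.89 and 7.57 in wild type (1.73 ± 0.49, adjusted p = 0.427, and 0.0598 with the block, or 0.0372 and 0.0444 with it and without spt3 replicate 1 or 2).

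The 20 other wall proteins had a median of -0.41 in not1-2, 12 below wild type, and the 22 glucan and chitin genes one of 0.32, 17 above. PLB2, a phospholipase B gene, gave 54.8 and 54.0 in not1-2, 45.8 and 78.8 in spt3, 55.4 and 73.6 in not1-2 spt3 and 154 and 275 in wild type. All 6 mutant arrays of PLB2 lay below wild type, and it passed as lower with the block in not1-2 (-1.92 ± 0.43, adjusted p = 0.314, and 0.0284 with the block, lost without any not1-2 or wild-type array or not1-2 spt3 replicate 2, at 0.0556 to 0.453). UTR2, which encodes a chitin-glucan cross-linking enzyme related to Crh1, gave 384 and 296 in not1-2, 152 and 204 in spt3, 179 and 179 in not1-2 spt3, and 568 and 849 in wild type, and passed as lower in spt3 (-1.98 ± 0.37, adjusted p = 0.309, and 0.0417 with the block, lost without any 1 array but spt3 replicate 2, at 0.0701 to 0.237).

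PUN1, a plasma membrane protein gene linked to wall integrity, gave 1288 and 1377 in not1-2, 419 and 286 in spt3, 307 and 340 in not1-2 spt3, and 922 and 473 in wild type. Its 2 not1-2 arrays were the highest and the 4 arrays of strains labelled spt3 the lowest. Its difference between not1-2 spt3 and not1-2 was -2.04 ± 0.43 (adjusted p = 0.236, or 0.0214 with the block). EXG1, an exo-glucanase gene, gave 477 and 736 in not1-2, 178 and 215 in spt3, 145 and 197 in not1-2 spt3 and 179 and 491 in wild type, a difference of -1.81 ± 0.53 in the same comparison (adjusted p = 0.454, or 0.0379 with the block). Both blocked calls were lost without any 1 array of not1-2 or not1-2 spt3, at 0.0652 to 0.305 for PUN1 and 0.18 to 0.336 for EXG1. Of the other yapsins and PIR5, 4 were measured above the filter and 0 passed in any comparison, with 0 at an unadjusted p under 0.05 without the block. MKC7, a yapsin gene, had the smallest p in not1-2 against wild type, at -0.75 ± 0.37 (adjusted p = 0.738, and 0.279 with the block).

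**Figure D4:**
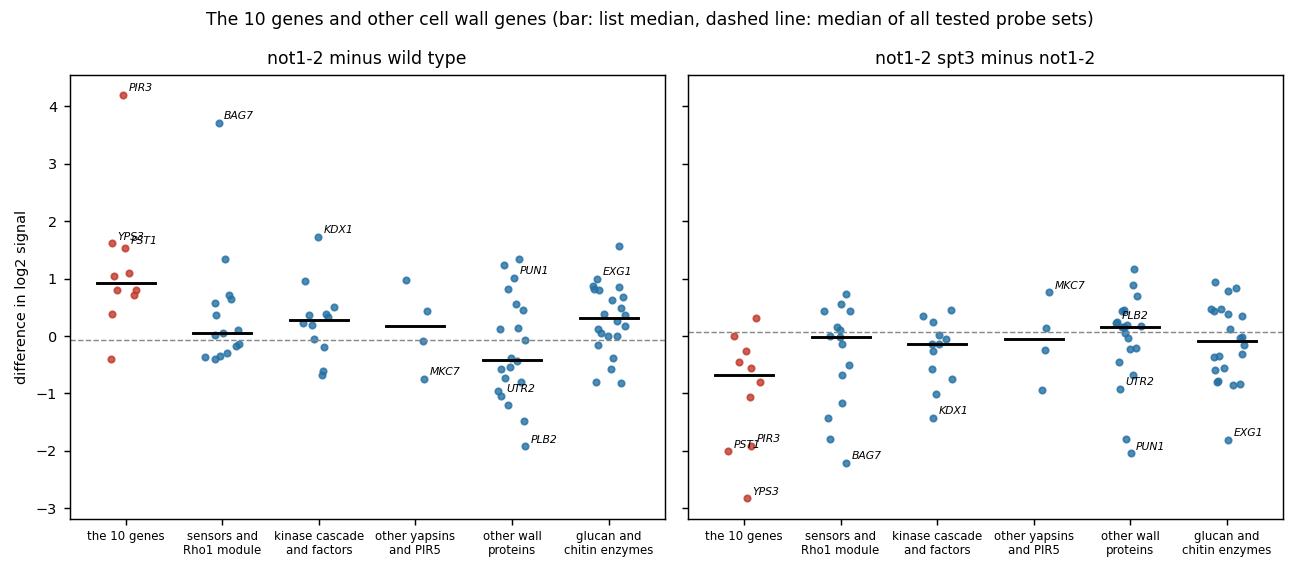
Difference in log2 signal of the 10 genes (red) and of 73 other wall and pathway genes in 5 lists (blue), in not1-2 minus wild type (left) and not1-2 spt3 minus not1-2 (right); bars are list medians and the dashed line the median of all tested probe sets. The median of the 10 genes was 0.92 on the left and -0.68 on the right.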

How the data were processed

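Per the labels, polyA RNA of each sample was labelled with biotin by Affymetrix's standard procedure and hybridised to a yeast array. The authors deposited 1 signal intensity on a linear scale for each probe set and array; the sources used here do not name the software. Arrays carry no read depth, and their number limits the precision (median SE of a difference 0.486). Of 9335 probe sets 60 were controls and left out. Names came from the platform annotation, updated by gene identifier to assembly R64. Arrays were centred on their median (range of medians 0.419 in log2), values below the 10th percentile, 1.72, were raised to it before log2, and probe sets whose highest strain mean exceeded 6.99 (the 25th percentile) were kept. The brightest stood for each gene, which left 7043, 5355 of them naming 1 gene.

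The test was limma 3.58.1 (R 4.3.3) with 1 mean for each strain, an intensity trend and Benjamini-Hochberg adjustment. Its code was run on simulated data with known changes and a replicate effect shared by all strains. That run does not show how blocked calls hold where the effect differs between strains. The main fit to the data held no replicate term, and a second fit added the replicate number as a block. The number was taken to pair the arrays because deviations of same-numbered arrays correlated in all 6 strain pairs (r from 0.188 to 0.739); no label states a shared day. Named genes are the 10 members, SPT3, CDC39 and TRP1 as checks, listed genes that passed with or without the block or else had the smallest p of their list in not1-2 against wild type, and the 3 nearest in pattern to PIR3 and to SLT2. Members and lists were chosen with earlier results of these data known. Other settings tried were the scaling, lowest value, filter, trend, arrays fitted, probe sets of a gene, the ACT1 ratio and each array left out.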

Additional observations from a re-analysis of the deposited data

Results flagged for a closer look

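For 3 genes every array of the strain lacking SPT3 lay on one side of wild type, and every not1-2 spt3 array on the other side of not1-2. Of all probe sets, 16% were higher and 15.9% lower in spt3 than in wild type without overlap. In not1-2 spt3 against not1-2, 20.2% were higher and 18% lower. The share that meets both conditions was not computed, so the count of 3 has no background to be read against. PIR3 differed by 2.35 in spt3 against wild type and by -1.92 in not1-2 spt3 against not1-2, an interaction of -4.27 ± 0.93 (adjusted p = 0.86, and 0.116 with the block). BAG7 differed by 1.73 and -2.21, an interaction of -3.94 ± 1.35 (adjusted p = 0.999, and 0.18 with the block), with 1 wild-type array at the lowest value. PLB2 differed by -1.78 and 0.23, an interaction of 2.01 ± 0.61 (adjusted p = 0.999, and 0.18 with the block). Against wild type PLB2 lay lower in all 3 mutants, by -1.92 in not1-2, -1.78 in spt3 and -1.69 in not1-2 spt3. PIR3 and BAG7 had estimates above wild type in all 3. In these interactions the mutations and the mating-type expression, in which wild type differs from every mutant, cannot be told apart. None of the 3 passed the test of the difference over all 8 arrays, with or without the block. With the block and without spt3 replicate 2, PIR3 (adjusted p = 0.0191) and BAG7 (-5.09, adjusted p = 0.0211) passed it.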

How the results depend on the processing

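Without a block 0 members were called in all 6 contrasts, whichever array was left out. In not1-2 against wild type the count was 3 with the replicate block, and 2 with the block plus the ACT1 ratio or quantile normalization. Of all probe sets these fits called 140 of 7043, 74 of 7043 and 106 of 7016. In not1-2 spt3 against not1-2 the member count was 2 in each of these 3 blocked fits, which called 166 of 7043, 84 of 7043 and 166 of 7016. Leaving out each array in the blocked fit gave between 0 and 3 members called in these contrasts and in spt3 against wild type, between 0 and 1 in not1-2 spt3 against wild type and in the interaction, and 0 in not1-2 spt3 against spt3. Calls over all probe sets moved in the same fits, from 2 to 306 in not1-2 against wild type, from 0 to 435 in not1-2 spt3 against not1-2, from 5 to 630 in spt3 against wild type, from 4 to 133 in not1-2 spt3 against wild type and from 0 to 106 in the interaction. The member median with each array left out ranged, without and with the block, from 0.59 to 1.42 and from 0.47 to 1.23 in not1-2 against wild type, and from -1.08 to -0.60 and from -0.88 to -0.56 in not1-2 spt3 against not1-2. It ranged from -0.35 to 0.33 and from -0.24 to 0.48 in not1-2 spt3 against wild type, and from -0.23 to 0.10 and from -0.45 to 0.35 in not1-2 spt3 against spt3. It ranged from -0.28 to 0.30 and from -0.33 to 0.50 in spt3 against wild type, and from -1.44 to -0.50 and from -1.44 to -0.54 in the interaction. In not1-2 spt3 against wild type the median was -0.26 with the block and ACT1 ratio. On the replicate 1 arrays alone, a setting chosen after seeing the data, it was 0.40, with -0.97 against not1-2 and -0.37 against spt3. The causes were not tested; leaving out an array also leaves fewer residual degrees of freedom. In the settings run, no called difference of a member or named gene changed sign. Without centring, the median of all probe sets in not1-2 against wild type was 0.06 in place of -0.08, and the member median 1.06 in place of 0.92.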
